A study of Rattus norvegicus with 48 samples.

Results

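Expression of 10 genes of cytokine receptor signalling and its feedback was measured in rat liver: the receptor chains Il6r, Il6st and Osmr, the transcription factor Stat3, the feedback inhibitors Socs1, Socs2, Socs3 and Cish, and the kinases Pim1 and Pim3. They were taken by symbol from the platform annotation, 1 probe set per gene, and make up 10 of the 14506 genes measured. Each of the 10 symbols had exactly 1 probe set, so no choice among probe sets was needed. All 10 genes entered every test, whatever their brightness. Osmr was the single member with a mean level under 5.19, the bound used for dim genes in an alternative.

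Cytokines and growth hormone bind receptors that carry Janus kinases, and these kinases phosphorylate STAT transcription factors, which then enter the nucleus. In liver, interleukin-6 acts through Il6r and the shared chain Il6st (gp130) on Stat3, while growth hormone acts mainly on STAT5. Genes of the SOCS family, Cish among them, are switched on by STATs and shut off the receptor that activated them, so their transcripts are short-lived early readouts of the pathway. Pim kinases are further STAT targets that favour cell survival.

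The livers came from 48 male Wistar rats, 1 biopsy of the right lobe and 1 Affymetrix array per rat, all under Hypnorm and midazolam anaesthesia with the abdomen opened in the midline. The 8 sham rats had no liver ischemia. The 10 rats of the ischemia and reperfusion group (IRI) had the blood flow to the whole liver stopped for 30 min and restored for 30 min. The 10 preconditioned rats (IPC) first went through 10 min of ischemia and 10 min of reperfusion and then through the same insult. The 10 postconditioned rats (IPO) had 3 brief cycles as flow returned, with flow for 30 sec and then none for 30 sec, and the 10 rats of the IPC+IPO group received both interventions. The labels give no time between laparotomy and biopsy for the sham rats, so elapsed time under surgery and ischemia cannot be told apart in a comparison with sham. The IPC protocol likewise adds its 10 min of ischemia and 10 min of reperfusion to the time before the biopsy.

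The stretch of DNA just before 2 of the inhibitor genes is shown first, because these windows hold the letters that STAT dimers are known to recognise. The motif searched was TTCNNNGAA, which reads the same on both strands. The search covered the 250 bases before a RefSeq start of each gene (build GRCr8, plus strand for both windows shown). Matches are in capitals. The Cish window is chr8:116850719-116850968 and ends at the base before the gene (chr8:116850969-116855917). The Socs1 window is chr10:5389324-5389573 and ends at the base before that gene (chr10:5389574-5391265).
Cish: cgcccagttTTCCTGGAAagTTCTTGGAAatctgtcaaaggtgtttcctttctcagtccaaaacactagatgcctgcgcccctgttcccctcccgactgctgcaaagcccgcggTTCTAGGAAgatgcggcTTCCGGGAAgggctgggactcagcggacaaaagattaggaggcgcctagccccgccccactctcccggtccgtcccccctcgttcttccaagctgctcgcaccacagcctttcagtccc
Socs1: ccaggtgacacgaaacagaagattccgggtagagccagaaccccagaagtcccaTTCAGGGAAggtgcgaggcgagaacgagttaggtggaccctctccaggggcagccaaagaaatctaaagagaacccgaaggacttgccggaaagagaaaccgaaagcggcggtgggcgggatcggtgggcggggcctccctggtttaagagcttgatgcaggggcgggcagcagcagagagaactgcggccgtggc

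The Cish window held 4 matches, in 2 close pairs. The first pair, TTCCTGGAA and TTCTTGGAA, began 241 and 230 bases before the start. The second pair, TTCTAGGAA and TTCCGGGAA, began 136 and 119 bases before it. The Socs1 window held 1 match, TTCAGGGAA, which began 196 bases before the start. Among all 33469 rat windows of this length, 2566 (7.67%) held at least 1 match and 2 (0.00598%) held at least 4. Windows of 7 other members, Socs3, Stat3, Pim1, Pim3, Il6r, Il6st and Osmr, held no match. That says only that these letters are not in these windows. For Socs3, Stat3, Pim3, Il6r, Il6st and Osmr the start used lies inside the annotated gene. A match is a description of the sequence and not a measured binding site.

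**Figure D1:**
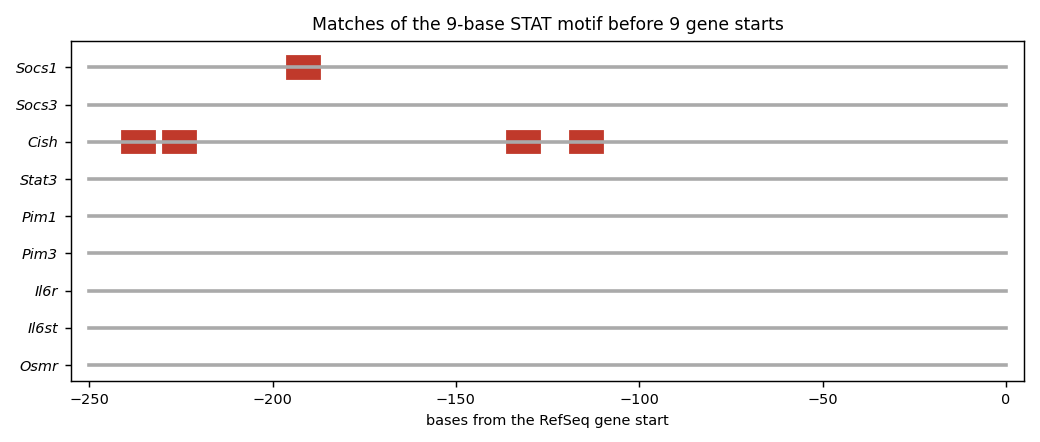
Matches of the motif TTCNNNGAA (red blocks) in the 250 bases before the RefSeq start used for 9 members, drawn by distance from that start in bases. For Socs3, Stat3, Pim3, Il6r, Il6st and Osmr that start lies inside the annotated gene. Cish has 4 matches, Socs1 has 1 and the other windows have none.

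Values are log2 expression as deposited, and a difference of 1 is a doubling of the array signal. Groups were compared with limma on all 48 arrays, and a gene is called where the Benjamini-Hochberg adjusted p over 14506 genes lies under 0.05. Arrays differed in their spread, which is the SD over genes of an array's log2 values. It ran from 1.498 to 1.965 and followed the first principal component (43.2% of the variance). Mean spread moved with the groups, from 1.72 in sham and 1.77 in IRI to 1.85 (IPC), 1.91 (IPO) and 1.86 (IPC+IPO). IPO exceeded sham by 0.185 (two-sided exact permutation test, p = 0.00302, adjusted over 10 pairs 0.0151). IPO exceeded IRI by 0.14 (permutation test, two-sided, p = 0.00202, adjusted p = 0.0151). The other 8 pairs had adjusted p values of 0.0947 or more. Member calls below are therefore also given with spread as a covariate and on 36 arrays, without those 12 whose spread was lowest. The smaller set holds 2 sham rats, numbers 43 and 48. Among the sham rats, number 43 was the highest in Cish and the lowest in Socs1, and number 48 was the highest in Socs3. Differences from sham on the 36 arrays rest on these 2 sham rats. For the pathway lists only the covariate was used. Hepatocyte markers were bright in every group: the mean of the 11 measured ran from 11.2 to 12.2 over the animals. Of 12 Kupffer cell and macrophage markers, 11 had a difference from sham above 0 in each of IPC, IPO and IPC+IPO, with medians of 0.41, 0.30 and 0.29. Their mean level per rat ran from 6.99 to 8.18 in sham and from 6.69 to 8.14 in IRI. For IPC the range was 7.51 to 8.21, for IPO 6.87 to 8.27 and for IPC+IPO 7.09 to 8.34. In each of the 3, 1 of the 12 was called: C1qb in IPC, Cd5l in IPO and Vsig4 in IPC+IPO. Of all genes 6.58% (IPC), 23.2% (IPO) and 3.62% (IPC+IPO) were called against sham. A difference above 0 was found for 51.7%, 50.1% and 52.6% of all genes in these groups. All 7 measured red cell and platelet markers had a difference above 0 in IRI against sham (median 0.36), and none was called. In that comparison 58.4% of all genes had a difference above 0 and 0.241% were called. The part of cell composition in the results below was not tested, and in a whole-tissue sample fewer cells of a type and less RNA per cell cannot be told apart.

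Among the 10 genes, the calls fell on the inhibitors and on Stat3. Socs2, Socs3 and Cish were called higher than sham in the IPC group, and Socs2 and Socs3 in the IPO group. In IPC+IPO the calls were Socs3 and Cish. Socs1 was called lower in IPO, against sham and against IRI, and Stat3 was called higher than in IRI there. As deposited, Il6r, Il6st, Osmr, Pim1 and Pim3 were called in none of the 10 pairwise comparisons. Under other settings Il6r was called in IPO against sham, with array weights and after renewed quantile normalization. Pim1 was called in IPC+IPO against sham with array weights (0.31, limma adjusted p = 0.0367).

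Against sham, the counts read as follows. In IRI 0 of 10 members were called by limma, with 4 at an unadjusted p under 0.05, where 0.241% of all genes were called and 11.5% had an unadjusted p under 0.05. In IPC 3 of 10 were called, all higher, where 6.58% of all genes were called and 5.6% were called higher. In IPO 3 of 10 were called, 2 higher and 1 lower, where 23.2% of all genes were called, 15.4% higher and 7.76% lower, so the share of the members is near that of all genes. In IPC+IPO 2 of 10 were called, both higher, where 3.62% of all genes were called and 3.05% were called higher. The 4 comparisons share the same 8 sham rats and are not independent of each other.

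Against IRI, 2 of 10 members were called in IPO, 1 higher and 1 lower, where 22.8% of all genes were called, 12.4% higher and 10.4% lower. That share does not exceed the background. In IPC 0 of 10 were called, with 2 at an unadjusted p under 0.05, where 0.0276% of all genes were called. In IPC+IPO 0 of 10 were called, again with 2 at an unadjusted p under 0.05, and 0% of all genes were called. These 3 comparisons share the 10 IRI rats. Between the intervention groups no member and no gene was called by limma (0%). The number of members at an unadjusted p under 0.05 was 1 in IPO against IPC, 1 in IPC+IPO against IPC and 0 in IPC+IPO against IPO. A moderated F test over the 5 groups called 4 of 10 members, Socs1, Socs2, Socs3 and Cish, where 14.4% of all genes were called.

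With spread as a covariate, fewer member calls remained. The IPC against sham comparison kept Socs2, Socs3 and Cish, where 1.9% of all genes were then called. In IRI against sham Socs3 became called, where 5.89% of all genes were then called. In IPO against sham 0 of 10 members were called (0% of all genes), in IPC+IPO against sham 0 of 10 (0.234%) and in IPO against IRI 0 of 10 (0.0138%). The F test called Cish alone among the members (1.34% of all genes).

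**Figure D2:**
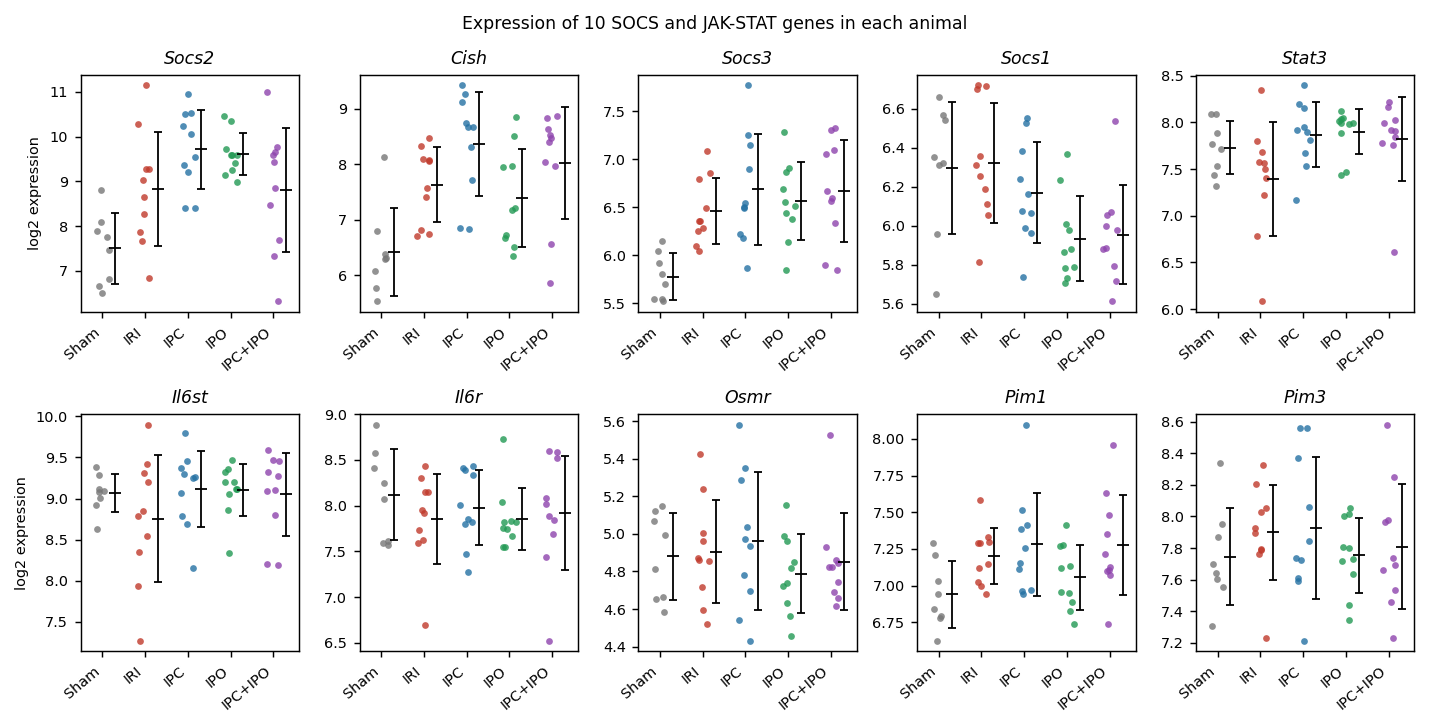
Deposited log2 expression of the 10 genes in each rat (points, 1 per animal) by group, with the group mean and 1 SD (bars), each gene on its own vertical axis. Socs2 in all 10 IPO rats lies above the highest sham rat at 8.82, and Cish in 7 of 10 IPC rats lies above the highest sham rat at 8.13.

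**Figure D3:**
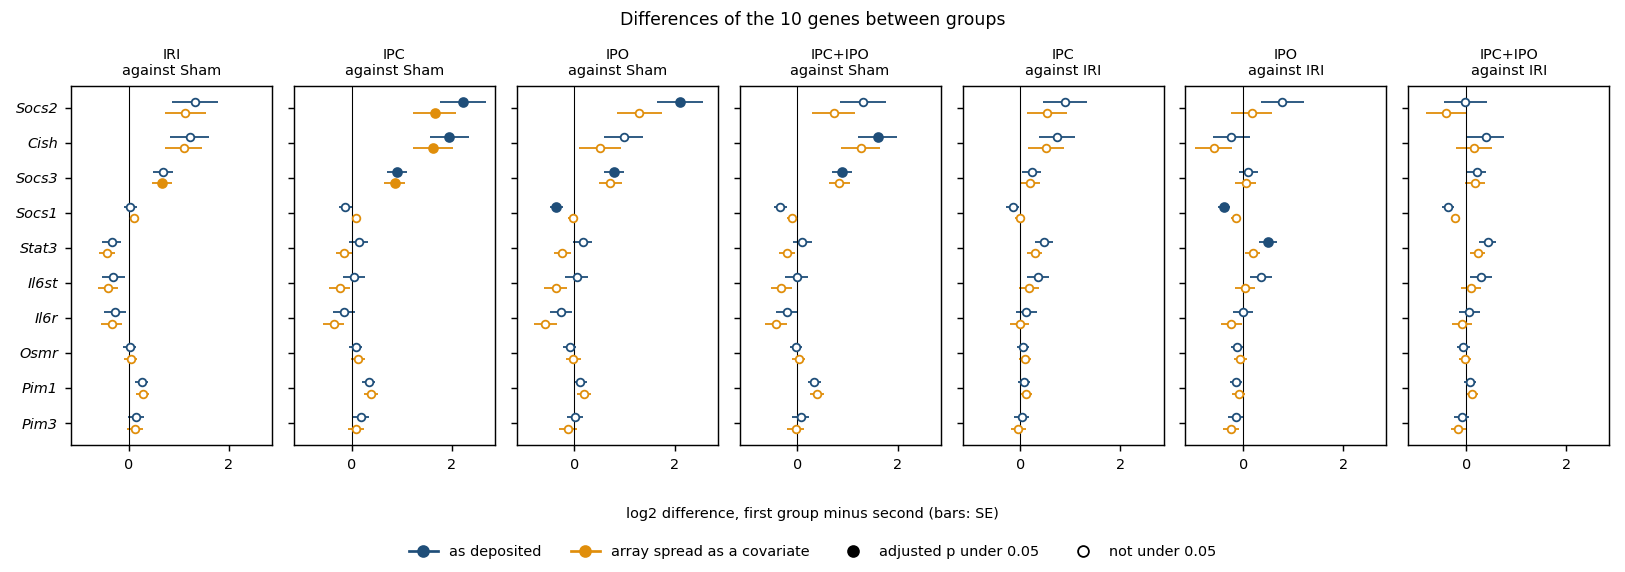
Log2 difference of each gene in 7 comparisons, first group minus second, with 1 SE, as deposited (blue) and with array spread as a covariate (orange); filled points have an adjusted p under 0.05. Socs2, Socs3 and Cish in IPC against sham are filled in both fits.

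The receptor chains come first. Il6r binds interleukin-6, and its levels ran from 6.53 to 8.89 over the 48 rats, with group means from 7.85 in IPO to 8.12 in sham. Its differences from sham lay between -0.27 in IPO and -0.14 in IPC, each with an SE of 0.22. Il6st, the signalling chain shared by the interleukin-6 family, ran from 7.27 to 9.90, and its group means ran from 8.76 in IRI to 9.11 in IPC. Its largest difference was 0.36 ± 0.22 (SE) in IPC against IRI, with an adjusted p of 0.332. Osmr, the oncostatin M receptor, was dim throughout, from 4.43 to 5.58, and its group means differed by at most 0.17 between IPC and IPO. The ranges of all groups overlapped for each of the 3 chains.

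Stat3 carries the signal of Il6st to the nucleus. In sham its lowest, median and highest levels were 7.32, 7.74 and 8.09. In IRI they were 6.08, 7.53 and 8.34. The IRI rats thus reached far below sham: 3 of 10 lay under every sham rat and 1 lay above. In IPC the levels were 7.17, 7.91 and 8.40, in IPO 7.43, 8.00 and 8.12, and for IPC+IPO 6.61, 7.91 and 8.21. The 3 intervention groups overlapped with both sham and IRI, and 9 of 10, 8 of 10 and 9 of 10 of their rats lay above the IRI median.

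Against IRI, Stat3 was higher in IPO by 0.50 ± 0.18 (SE), or 1.42-fold, with a limma adjusted p of 0.0398. The corresponding differences were 0.47 ± 0.18 in IPC (adjusted p = 0.185) and 0.43 ± 0.18 in IPC+IPO (adjusted p = 0.172), neither of them called. The 3 differences were thus close to each other, with unadjusted p values of 0.00704, 0.0108 and 0.0211, and the adjustment runs over comparisons that differ in their number of small p values. The call for IPO was lost on leaving out any of 11 rats: IRI rats 5, 7, 8 and 9 and IPO rats 21, 22, 23, 26, 27, 28 and 29, with differences of 0.36 to 0.50 and adjusted p values of 0.052 to 0.132. The largest step came from IRI rat 7, without which the difference was 0.36. Conversely, Stat3 in IPC+IPO against IRI was called at 0.56 (adjusted p = 0.0309) without IPC+IPO rat 38, the rat at 6.61. With array spread as a covariate the IPO difference was 0.19 ± 0.16 with an adjusted p of 0.727, and on the 36 arrays it was 0.20 (adjusted p = 0.334). For IPC the covariate gave 0.29 (adjusted p = 0.48) and the 36 arrays 0.18 (adjusted p = 0.713). For IPC+IPO they gave 0.23 (adjusted p = 0.578) and 0.27 (adjusted p = 0.232). Over the 48 arrays Stat3 correlated with spread at r = 0.62 (permutation p = 2e-05, adjusted over 10 members 6.67e-05). Its rho was 0.55 (permutation p = 6e-05, adjusted p = 0.0003). Within groups r was 0.61, and without the 2 arrays farthest in spread it was 0.45.

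Among the feedback inhibitors, Socs2 showed the largest differences. Socs2 is a STAT5 target that restrains growth hormone signalling. In sham its lowest, median and highest levels were 6.49, 7.62 and 8.82. In IRI they were 6.83, 8.84 and 11.14. IRI therefore covered almost the whole range of the study, with 5 of 10 rats above every sham rat. In IPC the levels were 8.41, 9.80 and 10.95 and in IPO they were 8.99, 9.58 and 10.45. All 10 IPO rats and 8 of 10 IPC rats lay above every sham rat, and the IPO rats lay close together (SD 0.47, against 1.27 in IRI). In IPC+IPO the levels ran from 6.32 over a median of 9.14 to 10.99, so that group spread again (SD 1.38), with 1 rat below every sham rat.

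Against sham Socs2 was higher in IPC by 2.22 ± 0.46 (SE), or 4.66-fold, with a limma adjusted p of 0.00346. In IPO it was higher by 2.11 ± 0.46, or 4.31-fold, with an adjusted p of 0.00383. Neither of these calls was lost on leaving out any 1 of the 48 arrays. The differences for IRI, 1.33 ± 0.46 (adjusted p = 0.192), and for IPC+IPO, 1.31 ± 0.46 (adjusted p = 0.0827), were not called. The IPC+IPO difference was called without IPC+IPO rat 37 (1.59, adjusted p = 0.016), IPC+IPO rat 38 (1.47, adjusted p = 0.029), sham rat 43 (1.37, adjusted p = 0.0433) or sham rat 48 (1.39, adjusted p = 0.0465). With spread as a covariate the IPC difference was 1.66 ± 0.43 (adjusted p = 0.0287) and the IPO difference was 1.30 ± 0.46 (adjusted p = 0.316). On the 36 arrays they were 1.77 (adjusted p = 0.568) and 1.61 (adjusted p = 1). For IPC+IPO the covariate gave 0.72 ± 0.43 (adjusted p = 0.449) and the 36 arrays 1.31 (adjusted p = 1). For IRI they gave 1.13 (adjusted p = 0.0808) and 1.16 (adjusted p = 0.416).

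Whether the pair of interventions acted additively on Socs2 was asked with the interaction, the effect of IPO in preconditioned rats minus its effect in rats without preconditioning. It was -1.69 ± 0.61 for Socs2, with an unadjusted p of 0.00804 and a limma adjusted p of 0.209, and was not called. For Stat3 it was -0.55 ± 0.25, with an unadjusted p of 0.0343 and an adjusted p of 0.231. With the covariate these values were -1.11 (adjusted p = 0.794) for Socs2 and -0.25 (adjusted p = 0.867) for Stat3. On the 36 arrays they were -0.91 (adjusted p = 0.981) and -0.12 (adjusted p = 0.985). No member was called for the interaction, where 0% of all genes were called and 20.3% had an unadjusted p under 0.05, and 2 of 10 members did. The group means behind the Socs2 value were 8.83 (IRI), 9.72 (IPC), 9.61 (IPO) and 8.81 (IPC+IPO). Against IRI, IPC differed by 0.89 ± 0.43 (limma adjusted p = 0.25) and IPO by 0.78 ± 0.43 (adjusted p = 0.151), neither of them called. The IRI and IPC+IPO medians were 8.84 and 9.14, and IPC+IPO rats 37 and 38 lay at 6.32 and 7.34. The difference of IPC+IPO from IRI was -0.02, with a 95% confidence interval from -0.89 to 0.85.

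Cish, the family's founding member, binds cytokine receptors that act through STAT5 and carries the 4 motif matches printed above. In sham its levels were 5.53, 6.31 and 8.13 (lowest, median, highest). In IRI they were 6.71, 7.82 and 8.47. A single sham rat, number 43 at 8.13, lay inside the IRI range well above the other 7, and 2 of 10 IRI rats exceeded it. In IPC the levels were 6.84, 8.67 and 9.42, in IPO 6.34, 7.20 and 8.85, and for IPC+IPO 5.86, 8.44 and 8.86. The number of rats above every sham rat was 7 of 10 in IPC, 2 of 10 in IPO and 6 of 10 in IPC+IPO, and 6 IPC, 2 IPO and 5 IPC+IPO rats also lay above every IRI rat.

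Against sham Cish was higher in IPC by 1.95 ± 0.39 (SE), or 3.86-fold, with a limma adjusted p of 0.00295, a call kept on leaving out any 1 array. In IPC+IPO it was higher by 1.60 ± 0.39, or 3.04-fold, with an adjusted p of 0.022. That call was lost without sham rats 41, 42, 46 or 47 in turn, with differences of 1.48 to 1.60 and adjusted p values of 0.0522 to 0.064. The IPO difference was 0.98 ± 0.39 with an adjusted p of 0.0587, and the IRI difference was 1.22 ± 0.39 with an adjusted p of 0.154. Sham rat 43 bears on both: without it the IPO difference was 1.22 (adjusted p = 0.0131) and the IRI difference was 1.46 (adjusted p = 0.0381), both called. The IPO difference was also called without IPO rat 27 (1.10, adjusted p = 0.0489) or IPC+IPO rat 34 (0.98, adjusted p = 0.0443). With spread as a covariate the IPC difference was 1.62 ± 0.39 (adjusted p = 0.0191) and the IPC+IPO difference was 1.26 ± 0.40 (adjusted p = 0.125). On the 36 arrays they were 1.43 (adjusted p = 0.621) and 1.09 (adjusted p = 1). The IPO difference was 0.51 ± 0.42 with the covariate (adjusted p = 0.728) and 0.29 on the 36 arrays (adjusted p = 1). The IRI difference was 1.10 ± 0.37 with the covariate (adjusted p = 0.0621) and 0.50 on the 36 arrays (adjusted p = 0.709). Sham rat 43 is 1 of the 2 sham rats among those 36 arrays.

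Cish was called in IPC and not in IPO, but the difference between those groups was itself not called. It was -0.97 ± 0.37 for IPO minus IPC, with a limma adjusted p of 0.835 and a 95% confidence interval from -1.71 to -0.23. Array weights moved it to -1.38 with an adjusted p of 0.0128. With the covariate it was -1.12 (adjusted p = 0.998) and on the 36 arrays -1.14 (adjusted p = 0.584). The order of Cish means was IPC, IPC+IPO, IRI, IPO and sham, and no neighbouring pair in that order was called. The same holds for every other member: no neighbours in the order of group means differed at an adjusted p under 0.05.

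Socs3 blocks signalling through Il6st and is the classical inhibitor of the Stat3 branch. In sham its levels were 5.52, 5.75 and 6.14. In IRI they were 6.04, 6.36 and 7.08. All 10 IRI rats lay above the sham median and 8 of 10 lay above every sham rat. In IPC the levels were 5.87, 6.52 and 7.77, in IPO 5.85, 6.53 and 7.28, and for IPC+IPO 5.85, 6.63 and 7.32. The number of rats above every sham rat was 9 of 10, 8 of 10 and 8 of 10, and all 30 rats of these groups lay above the sham median.

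Against sham Socs3 was higher in IPC by 0.91 ± 0.20 (SE), or 1.88-fold (limma adjusted p = 0.00649). It was higher in IPC+IPO by 0.89 ± 0.20, or 1.85-fold (adjusted p = 0.0154), and in IPO by 0.78 ± 0.20, or 1.72-fold (adjusted p = 0.00842). None of these 3 calls was lost on leaving out any 1 array. In IRI the difference was 0.68 ± 0.20, or 1.61-fold, with an unadjusted p of 0.00146 and an adjusted p of 0.109, so it was not called. It was called without sham rat 48 (0.74, adjusted p = 0.0487), with array weights (0.69, adjusted p = 0.0256), after renewed quantile normalization (0.82, adjusted p = 0.0278) and with spread as a covariate (0.67, adjusted p = 0.0404). The covariate left the differences at 0.86 in IPC (adjusted p = 0.0232), 0.84 in IPC+IPO (adjusted p = 0.0621) and 0.72 in IPO (adjusted p = 0.254). On the 36 arrays the 3 differences were 0.64, 0.59 and 0.47, and that of IRI was 0.39 (adjusted p = 0.575), none of them called. Against IRI the Socs3 differences were 0.23, 0.10 and 0.21 for IPC, IPO and IPC+IPO, each with an SE of 0.19 and none of them called. The 95% confidence intervals of these 3 differences ran from -0.28 at the lowest to 0.61 at the highest.

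Socs1, an inhibitor of interferon and cytokine receptors, was called in the opposite direction. In sham its levels were 5.65, 6.34 and 6.66. In IRI they were 5.81, 6.28 and 6.72. The levels of sham and IRI overlapped almost completely, and their difference was 0.03 ± 0.13. In IPC the levels were 5.74, 6.12 and 6.55, in IPO 5.71, 5.87 and 6.37, and for IPC+IPO 5.61, 5.93 and 6.54. In IPO and in IPC+IPO 1 of 10 rats lay above the sham median, and 4 IPO rats lay below every IRI rat.

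Socs1 fell by 0.39 ± 0.12 (SE) in IPO against IRI, or 1.31-fold, with a limma adjusted p of 0.0263. In IPO against sham it fell by 0.36 ± 0.13, or 1.28-fold, with an adjusted p of 0.0397. In IPC+IPO the differences were -0.37 ± 0.12 from IRI (adjusted p = 0.109) and -0.34 ± 0.13 from sham (adjusted p = 0.107), neither of them called. The call against IRI was lost without IRI rat 7 (-0.35, adjusted p = 0.0761) or IRI rat 8 (-0.35, adjusted p = 0.0545). The call against sham was lost without any of 12 rats: IPO rats 22, 23, 26, 27, 28 and 29 and sham rats 41, 42, 44, 45, 46 and 47, with adjusted p values of 0.0554 to 0.0987. The IPC+IPO difference from sham was called without sham rat 43 (-0.43, adjusted p = 0.0177), sham rat 48 (-0.39, adjusted p = 0.0467) or IPC+IPO rat 37 (-0.41, adjusted p = 0.031). That from IRI was called without IRI rat 1 (-0.43, adjusted p = 0.0361), IPC+IPO rat 37 (-0.43, adjusted p = 0.047) or IPC+IPO rat 38 (-0.38, adjusted p = 0.0437).

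Of the 10 members Socs1 followed the spread of the arrays most closely. Its r with spread was -0.77 and its rho -0.84 over 48 arrays. Both had a permutation p of 1e-05, the smallest that 100000 permutations can give. Adjusted over 10 members, these p values were 6.67e-05 for r and 0.0001 for rho. Within groups r was -0.72, and without the 2 farthest arrays it was -0.83. With spread as a covariate the IPO differences were -0.14 ± 0.09 from IRI and -0.03 ± 0.10 from sham, with adjusted p values of 0.637 and 0.943. On the 36 arrays the IPO difference from IRI was -0.27 (adjusted p = 0.121), and that from sham had the opposite sign, at 0.13. For IPC+IPO against IRI the covariate gave -0.21 (adjusted p = 0.316) and the 36 arrays -0.34 (adjusted p = 0.0765). Against sham they gave -0.10 (adjusted p = 0.662) and 0.064 (adjusted p = 1). The corresponding r with spread was 0.59 for Socs2, 0.40 for Cish and 0.31 for Socs3, and within groups it was 0.48, 0.33 and 0.09. The adjusted permutation p values of those 3 within-group values were 0.007, 0.0502 and 0.55.

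Pim1 and Pim3 are survival kinases whose transcription follows STAT activity. Pim1 levels ran from 6.62 to 8.10 over the 48 rats, and its lowest group mean was 6.94 in sham. Its differences from sham were 0.26 (IRI), 0.34 (IPC), 0.12 (IPO) and 0.34 (IPC+IPO), each with an SE of 0.13. None was called, with adjusted p values of 0.435, 0.0997, 0.482 and 0.11, while all 10 IRI and all 10 IPC rats lay above the sham median of 6.89. Pim3 levels ran from 7.21 to 8.58, and its group means lay between 7.75 in sham and 7.93 in IPC. Its differences from sham lay between 0.01 in IPO and 0.18 in IPC, each with an SE of 0.16.

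The members were also compared with each other over the 48 rats, in 45 pairs. The Benjamini-Hochberg adjusted permutation p of Pearson's r lay under 0.05 in 20 pairs. After removal of the group means it did so in 22 pairs, and after removal of group means and spread in 21. The share among pairs of other genes was not computed, so these counts do not set the members apart from other genes. Il6st and Stat3 had the highest r, 0.77, with rho 0.70 (permutation p = 1e-05 for both, the smallest possible, adjusted p = 9e-05 and 7.5e-05). Without the 2 animals farthest from the median of Stat3 r was 0.65, and with group means and spread removed it was 0.66. Within the 5 groups taken singly it ran from 0.69 in sham to 0.94 in IPC. The shared receptor chain and its transcription factor were thus high or low in the same animals, while no group comparison was called for Il6st. Genes outside the members reached higher values with Stat3 as deposited: r was 0.90 for Ahcyl1, 0.91 for Copa and 0.91 for Usp7.

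Socs3 and Cish varied together at r = 0.70 and rho = 0.69 (permutation p = 1e-05 for both, adjusted p = 9e-05 and 7.5e-05). Without the 2 animals farthest from the median of Socs3 r was 0.67, with group means removed 0.57 and with spread also removed 0.57. It was 0.79 in IPC and 0.66 in IPC+IPO but 0.23 in IPO. Socs2 and Cish had an r of 0.65 and a rho of 0.66 (permutation p = 1e-05 for both, adjusted p = 9e-05 and 7.5e-05). That r was 0.61 without the 2 animals farthest from the median of Socs2, 0.58 with group means removed and 0.51 with spread also removed. It lay between 0.59 and 0.75 in the 4 groups with ischemia and at 0.14 in sham. Socs2 also varied with Il6st, at r = 0.57 over all rats and 0.70 with group means removed (permutation p = 1e-05, adjusted p = 0.00015).

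Socs1 was negatively related to several members as deposited, and less so once spread was removed. Its r with Stat3 was -0.59 and rho -0.65 (permutation p = 1e-05 for both, adjusted p = 9e-05 and 7.5e-05). Without the 2 animals farthest from the median of Socs1 r was -0.48. With group means and spread removed that r was -0.20 (permutation p = 0.202). Socs3 and Stat3 had an r of 0.08 and a rho of 0.20 (permutation p = 0.594 and 0.171, adjusted p = 0.636 and 0.22).

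**Figure D4:**
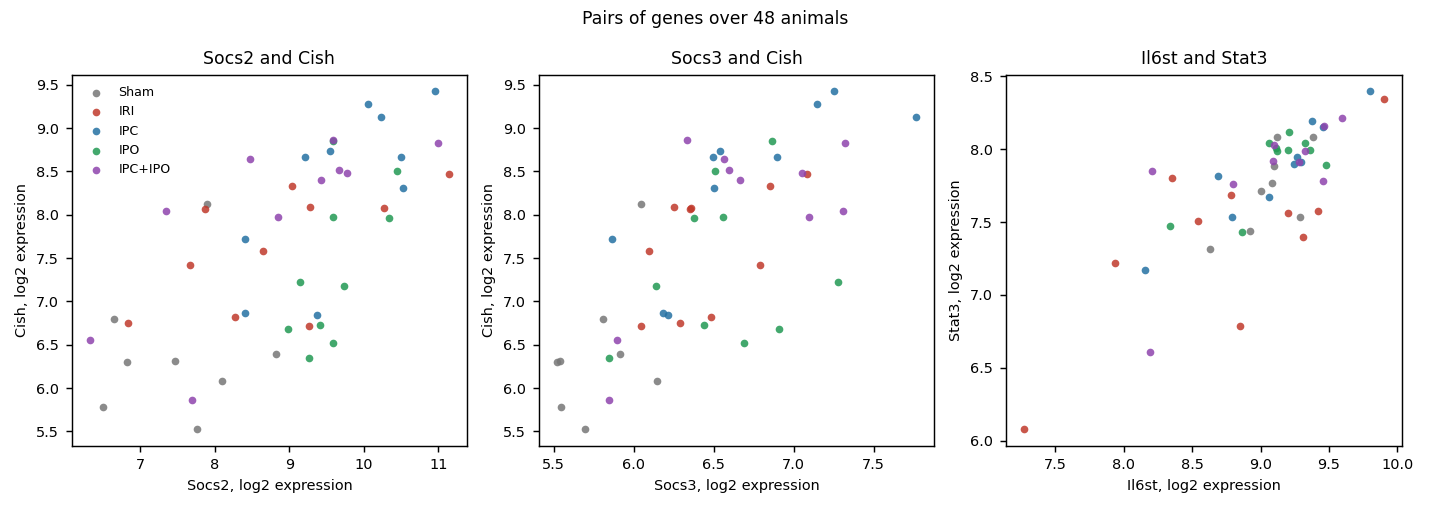
Log2 expression of 3 pairs of members over the 48 rats, coloured by group, 1 point per rat. Points rise together for Socs2 and Cish (r = 0.65), Socs3 and Cish (r = 0.70) and Il6st and Stat3 (r = 0.77). In the panel of Socs3 and Cish, sham rat 43 lies apart from the other 7 sham rats, with Cish at 8.13.

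For the members called in a comparison, the genes whose pattern over 48 arrays was most like theirs were ranked by Pearson's r, with the slope on spread taken out of both genes first. For Socs3 they were Junb (r = 0.84), Dusp5 (0.81) and Zfp36 (0.77), which are an AP-1 subunit, a phosphatase of MAP kinases and an mRNA-destabilising protein. For Cish they were Gadd45a (0.82), a growth arrest gene, Trib1 (0.81), a pseudokinase, and Bhlhe40 (0.79), a transcriptional repressor. For Socs2 they were Onecut1 (0.80), a hepatocyte transcription factor, Vps37b (0.77) and Tars1 (0.77), a tRNA synthetase. For Stat3 they were Ahcyl1 (0.89), Copa (0.85), a coat protein of transport vesicles, and Usp7 (0.85), a deubiquitinase. For Socs1 the values were lower: Ube2a (0.66), Gatc (0.65) and Prss57 (0.64). As deposited these r were -0.19, 0.02 and 0.82, so Ube2a and Gatc were like Socs1 only once spread was removed. These values are descriptions over arrays that share group and processing, picked from 14506 genes.

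The rest of the pathway was read from 7 lists. Upstream, none of the 7 measured ligands of the gp130 family was called in any comparison. Il6, the ligand of Il6r, differed from sham by 0.37 ± 0.15 (SE) in IPC (adjusted p = 0.119), and its differences in the other groups were 0.08 (IRI), -0.18 (IPO) and 0.01 (IPC+IPO), with the same SE. Osm, the ligand of Osmr, differed by 0.20 ± 0.15 in IRI and by less in the other groups. The median difference of the list from sham was 0.11 (IRI), -0.08 (IPC), -0.09 (IPO) and 0.01 (IPC+IPO), beside 0.03, 0.01, 0.00 and 0.01 over all genes. Of 14 other ligands, Il10, an anti-inflammatory cytokine that acts on Stat3, rose against sham in IPC by 0.72 ± 0.23 (adjusted p = 0.0495) and in IPO by 0.83 ± 0.23 (adjusted p = 0.0128). In IPO against IRI Csf2 and Prl fell by 0.30 ± 0.10 and 0.21 ± 0.07 (adjusted p = 0.0271 and 0.0342). Of all genes 10.4% were called lower in that comparison, and with spread as a covariate 0.0138% were called. Against sham 5.6% (IPC) and 15.4% (IPO) of all genes were called higher.

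Of 16 other receptors measured, 3 rose and none fell against sham in IPC and the same count held in IPO, where 5.6% (IPC) and 15.4% (IPO) of all genes were called higher. Ifngr2, a chain of the interferon gamma receptor, was higher by 0.62 ± 0.15 in IPC (adjusted p = 0.0117) and 0.58 ± 0.15 in IPO (adjusted p = 0.00816). Il11ra1, a receptor that pairs with Il6st, was higher by 0.57 ± 0.17 in IPC and 0.59 ± 0.17 in IPO (adjusted p = 0.039 and 0.0153). The third gene was Csf2rb in IPC and Ghr, the growth hormone receptor, in IPO, at 0.38 ± 0.12 and 0.37 ± 0.13. With spread as a covariate no ligand or receptor of these lists was called against sham in IPC or IPO. Of 8 other kinases and STATs, Stat5b rose against sham in IPC by 0.68 ± 0.21 (adjusted p = 0.0441) and in IPO by 0.74 ± 0.21 (adjusted p = 0.0137). Stat5a rose in IPO by 0.58 ± 0.17 (adjusted p = 0.0147), and both STAT5 genes also rose in IPO against IRI, by 0.45 ± 0.16 and 0.59 ± 0.20. Neither was called with spread as a covariate.

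Of 17 other inhibitors, Socs5 was the one called against sham in all 3 intervention groups. Its difference was 0.53 ± 0.13 in IPC (adjusted p = 0.0161), 0.53 ± 0.13 in IPO (adjusted p = 0.00793) and 0.46 ± 0.13 in IPC+IPO (adjusted p = 0.0424). In IPO 6 of the 17 rose and none fell, with Socs6, Pias1 and Pias4 among them at 0.38 ± 0.12, 0.49 ± 0.16 and 0.36 ± 0.10. The median of that list in IPO against sham was 0.28, beside 0.00 over all genes, and 15.4% of all genes were called higher there. With spread as a covariate none of the 17 was called in any of these comparisons.

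Downstream, the list of STAT3 target genes (33 of 35 measured) is the longest of the 7. Against sham 1 of 33 rose in IRI, and 10 (IPC), 12 (IPO) and 7 (IPC+IPO) in the other groups, and none fell. Of all genes 0.172% (IRI), 5.6% (IPC), 15.4% (IPO) and 3.05% (IPC+IPO) were called higher. The medians were 0.06, 0.34, 0.37 and 0.28, beside 0.03, 0.01, 0.00 and 0.01 over all genes. The largest differences belonged to early response genes that other pathways also drive. Junb was higher by 1.36 ± 0.32 (SE) in IRI (limma adjusted p = 0.0462) and by 1.91 ± 0.32 in IPC (adjusted p = 0.000543), with 1.54 for IPO and 1.83 for IPC+IPO. Zfp36 was higher by 2.12 ± 0.38 in IPC (adjusted p = 0.0011), 1.81 ± 0.38 in IPO and 2.12 ± 0.38 in IPC+IPO, while in IRI its difference was 0.73 ± 0.38 (adjusted p = 0.465). Gadd45g, a growth arrest gene, was higher by 1.86 ± 0.31, 1.38 ± 0.31 and 1.74 ± 0.31 in the same 3 groups. Myc was called in IPC at 1.64 ± 0.31 (adjusted p = 0.00171), and its differences in IPO and IPC+IPO were 0.73 and 0.99 (adjusted p = 0.0737 and 0.0559).

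Against IRI 11 of the 33 target genes rose in IPO and none in IPC or IPC+IPO. They included the fibrinogen chains Fga (0.39 ± 0.10, adjusted p = 0.0139) and Fgb (0.29 ± 0.07, adjusted p = 0.0136), with Lbp (0.66 ± 0.21) and Rgs2 (0.77 ± 0.20). In that comparison 12.4% of all genes were called higher, and with spread as a covariate none of the 33 was called. With the covariate 5 of 33 remained called against sham in IPC (Junb, Myc, Hamp, Zfp36 and Gadd45g) and 3 in IPC+IPO (Junb, Zfp36 and Gadd45g). In IRI 3 rose (Junb, Hamp and Gadd45g) and Hif1a fell. Under that fit 1.9% of all genes were called in IPC, 0.234% in IPC+IPO and 5.89% in IRI. In IPO against sham 0% of all genes were called with the covariate, so no target gene kept its call there.

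The list of growth hormone and STAT5 targets (10 of 14 measured), beside which Socs2 and Cish stand, had 1 of 10 called against sham in IPC and 3 of 10 in IPO, all higher, and 0 in IRI and IPC+IPO. Of all genes 5.6% (IPC) and 15.4% (IPO) were called higher. Igfals, which carries insulin-like growth factor in blood, rose against sham by 0.87 ± 0.23 (SE) in IPC (adjusted p = 0.0189) and by 0.86 ± 0.23 in IPO (adjusted p = 0.00955). Igf1 itself rose in IPO by 0.43 ± 0.12 against sham (adjusted p = 0.0122) and by 0.30 ± 0.11 against IRI (adjusted p = 0.0486). Ghr, named above among the receptors, also stands on this list and was among those called in IPO against sham. Onecut1, the gene most like Socs2, differed from sham by 0.93 ± 0.34 in IPC (adjusted p = 0.0865) and was called in no group. The list's medians against sham, in the order IRI, IPC, IPO and IPC+IPO, were 0.09, 0.21, 0.35 and 0.14. With the covariate none of the 10 was called in any of these comparisons.

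**Figure D5:**
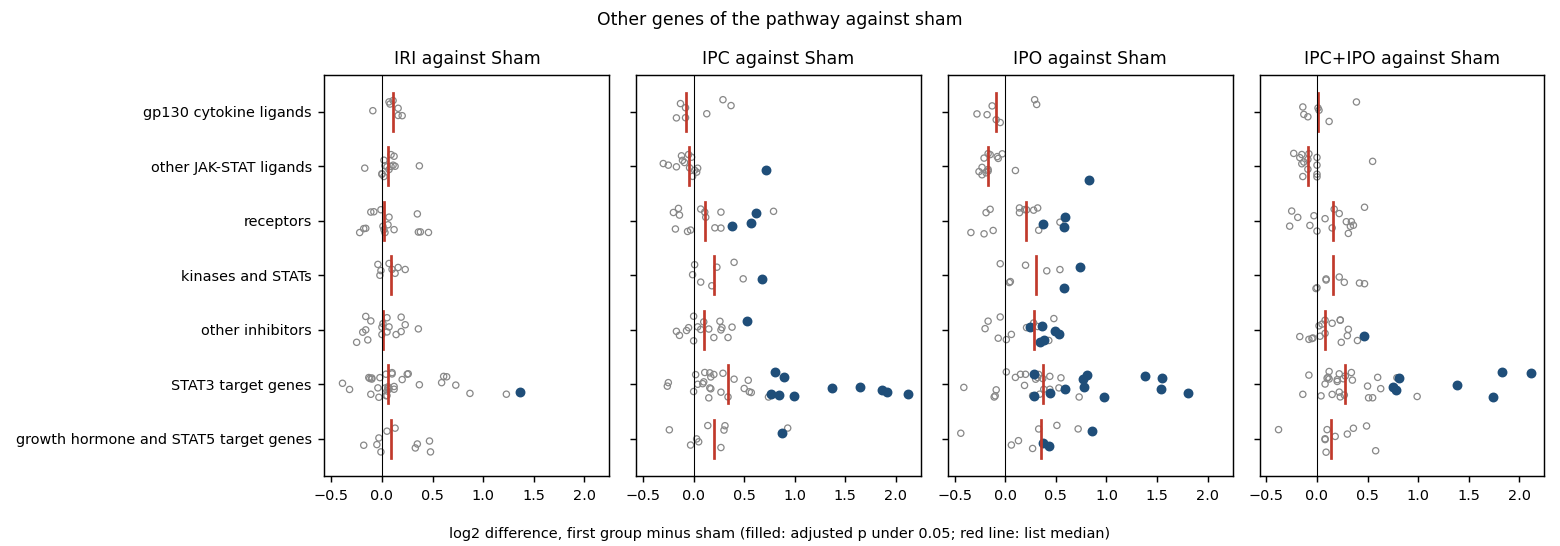
Log2 differences from sham of the measured genes of 7 pathway lists in IRI, IPC, IPO and IPC+IPO, 1 point per gene; filled points have an adjusted p under 0.05 and the red line is the median of the list. STAT3 target genes hold 1, 10, 12 and 7 filled points, and the gp130 ligands hold none.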

How the data were processed

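Per the submitters' processing notes, the deposited log2 values came from RMA, run by the authors in Affymetrix Expression Console; RMA removes background, equalises probe distributions between arrays and summarises probes, which can compress differences of dim genes. The labels give no batch or date. Of 29215 probe sets, 15310 have 1 gene symbol, 323 several and 13582 none here, and the brightest probe set on average stood for each of 14506 genes. The number of arrays limits the precision. The members and lists were chosen with earlier results of these data known.

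Differences were estimated with lmFit and eBayes of limma 3.58.1 (R 4.3.3) in a single fit with 43 residual degrees of freedom. Tests were two-sided, with Benjamini-Hochberg adjustment over all genes and a threshold of 0.05. The code was checked on simulated data with independent noise for each gene and no simulated differences in array spread. That check therefore cannot tell how many calls follow spread. Intervals use limma's moderated t distribution. Correlations used 100000 permutations (Python 3.11.15), and figures matplotlib 3.10.9. From a list, the called genes could be named, or the 4 of smallest p where more were called, and the text gives a selection. A gene can stand on several lists, as Ghr does among the receptors and the growth hormone targets. Windows from RefSeq (GRCr8) were matched by symbol for 9 of 10 members. Alternatives changed the samples fitted (the compared groups alone, 36 arrays without the lowest spread, each array left out in turn), the model (trend with robust variance, weights per array, spread as covariate), the genes (mean of at least 5.19, all probe sets, most variable probe set), the scaling (median centring, renewed quantile normalization) and the call (adjusted p under 0.01, at least 1.5-fold).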

Additional observations from a re-analysis of the deposited data

Results flagged for a closer look

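In 8 of 50 combinations of member and group, 1 rat lay far from the other 9, by Dixon's ratio at the 95% level; chance alone gives about 1 in 20 such groups. Socs1 in IPC+IPO rat 37 was highest at 6.54 (next 6.07). Stat3 in IPC+IPO rat 38 was lowest at 6.61 (next 7.76). Pim1 in IPC rat 11 was highest at 8.10 (next 7.52). Pim3 in IRI rat 8 was lowest at 7.23 (next 7.76). Il6r in IRI rat 7 was lowest at 6.70 (next 7.59) and in IPO rat 30 highest at 8.73 (next 8.04). Il6st in IPO rat 24 was lowest at 8.34 (next 8.87). Osmr in IPC+IPO rat 32 was highest at 5.53 (next 4.93).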

How the results depend on the processing

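No paired analysis was possible because the rats are numbered 1 to 48 and no number recurs between groups. For IRI against sham the count of members called, 0 as deposited, was 3 with array weights, 2 after renewed quantile normalization and 1 with the spread covariate, and 0 to 1 on leaving out single arrays. For IPO against IRI it was 2 as deposited, 1 with only the groups compared, 1 after renewed quantile normalization, and 0 with the covariate, without the 12 arrays of lowest spread, at an adjusted p under 0.01 and with a 1.5-fold minimum (0 to 3 on leaving out single arrays). For IPC+IPO against IRI it was 0, and 2 with array weights (0 to 2). For IPC against sham it was 3, and 0 without the 12 arrays; it stayed at 3 on leaving out any 1 array. For IPO against sham it was 3, 5 with array weights, and 0 with the covariate and without the 12 arrays (2 to 4). For IPC+IPO against sham it was 2, 5 with array weights, and 0 with only the groups compared, with the covariate, without the 12 arrays and at an adjusted p under 0.01 (1 to 4). For IPO against IPC it was 0, and 1 with array weights. The F test called 4, then 1 with the covariate, 0 without the 12 arrays and 1 at an adjusted p under 0.01 (3 to 5). Without the 12 arrays, 2 sham rats are left, numbers 43 and 48. The differences of Socs1 from sham then turned to 0.132 in IPO and 0.064 in IPC+IPO. The cause of this and of the other changes was not tested. Of 819 recomputed member differences that had an unadjusted p of 0.05 or more, 82 had the opposite sign. Of the same 819, 3 were called: Il6r in IPO against sham with array weights and after renewed quantile normalization, and Socs1 in IPC against sham with array weights.

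The count of all genes called moved as widely. Over the 12 alternatives it ran from 0 to 1894 in IRI against sham (35 as deposited), 0 to 568 in IPC against IRI (4), 2 to 6098 in IPO against IRI (3307), 0 to 4484 in IPC+IPO against IRI (0), 2 to 7051 in IPC against sham (955), 0 to 9749 in IPO against sham (3364) and 0 to 9007 in IPC+IPO against sham (525). After renewed quantile normalization 639 genes were higher and 677 lower in IPO against sham, beside 2238 and 1126 as deposited; in IPC against sham they were 403 and 267, beside 812 and 143.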

Other observations

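The extremes of several members fell on the same rats. IRI rat 1 was the highest of its group in 6 of 10 members (Socs2, Socs3, Cish, Stat3, Pim1 and Il6st) and had the highest spread there, 1.92. IPC+IPO rat 32 was the highest in 6 (Socs2, Socs3, Stat3, Pim1, Il6st and Osmr), at a spread of 1.90, and IPC rat 15 in 5 (Socs2, Cish, Stat3, Pim3 and Il6st), at 1.91. IPC rat 17 was the lowest in 6 (Socs3, Stat3, Pim1, Pim3, Il6r and Il6st), at 1.79. IRI rat 7 and IPC+IPO rat 38 were each the lowest of their group in Stat3, Il6r and Il6st, and had the lowest spread of their group, 1.54 and 1.498. IPO rat 30 also had the lowest spread of its group, 1.75, but was the highest in 4 (Pim1, Il6r, Il6st and Osmr). Sham rat 43 had the highest spread of its group, 1.96. It was the highest in 4 (Cish, Pim3, Il6r and Il6st) and the lowest in 3 (Socs1, Pim1 and Osmr). The part of spread in these extremes was not tested.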
